A study of Mus musculus with 2 samples.

Results

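Txnip, the thioredoxin-interacting protein gene, was followed across blood cell classes in wild-type (wt) mice and in db/db mice. It is 1 of the 31053 genes listed in each library (ENSMUSG00000038393, chromosome 3, 96557957 to 96561883 on the plus strand, GRCm38, 8 exons). It was chosen by its measured level, which stood higher in db/db lymphocytes in earlier results of the same data, so its levels and ratios below are a description and no test was made on them. Each genotype gave 1 droplet single-cell library from peripheral blood, taken per the labels from 3 male C57BLKs/J mice aged 21 weeks with 200 µl of blood per group, after red cell lysis. db/db mice lack a working leptin receptor (Lepr), become obese and serve as a model of type 2 diabetes. Per the labels both groups share strain, sex, age, blood volume and red cell lysis, and whether they were otherwise handled alike was not tested. Blood glucose, feeding state and hour of sampling are not given in the sources used here. No barcode can be traced to a mouse, so every interval below covers counting error only and not the variation between animals. Lepr itself had 0 UMIs (unique molecular identifiers, the counted RNA molecules) in the kept cells of both libraries, which allows up to 3 in each and does not check the genotype labels.

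Txnip is an alpha-arrestin that binds reduced thioredoxin and limits its reductase activity. It also lowers glucose uptake by drawing glucose transporters from the cell surface. Its transcription is known to follow glucose through the MondoA and ChREBP factors (Mlxip and Mlxipl) with their partner Mlx, and it is also known as a target of glucocorticoids and FOXO factors. In lymphocytes it is high at rest and falls on activation.

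The stretch just before the transcription start is shown because the glucose response of Txnip is known to run through carbohydrate response elements, which are paired E box-like motifs. The 250 bases before the start lie at chr3:96557707-96557956, plus strand, and come from RefSeq on GRCm38.p6. Capitals mark the E box-like motif CACGNG, the NF-Y box CCAAT and, on the minus strand, the forkhead motif TGTTTAC. All were searched on both strands.

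Txnip: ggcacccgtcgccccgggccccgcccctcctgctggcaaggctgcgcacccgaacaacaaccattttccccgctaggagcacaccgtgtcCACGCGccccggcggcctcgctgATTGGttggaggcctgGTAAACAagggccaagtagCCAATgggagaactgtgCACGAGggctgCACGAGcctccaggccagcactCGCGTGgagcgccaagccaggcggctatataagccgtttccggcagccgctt

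CACGNG matched 4 times, and 27.5% of the 32851 promoters in the same table, each running from before to just past a start, held at least 1 match on either strand. CCAAT matched 2 times (37.4% of promoters). TGTTTAC matched 1 time (3.65%). The full E box CACGTG was not among these letters (7.15% of promoters held it), nor was the consensus palindrome of the glucocorticoid receptor (0.00913%). Of the 4 CACGNG matches, 2 stood as a pair spaced by 5 bases, from 85 to 69 bases before the start. The pair, searched on both strands as CACGNG, any 5 bases and CACGNG after the letters had been seen, was present in 16 of the 32851 promoters (0.0487%). Besides Txnip, 13 genes of the files carried it, and 7 of them had at least 20 UMIs in both B cell groups, with log2 ratios of db/db over wt between -0.31 and 0.34. These matches describe letters only.

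The files held 16700 wt and 19912 db/db barcodes. Barcodes with 200 to 6000 genes and under 10% mitochondrial UMIs were kept, which left 5727 wt and 6109 db/db cells with medians of 2562 and 2523 UMIs. Txnip had 4655 UMIs in the kept wt cells and 9115 in the kept db/db cells. The libraries shared 91 barcodes, of which 30 in wt and 28 in db/db were kept. Haemoglobin made up 36.7% of the kept UMIs in wt and 40.5% in db/db. Gm42418, a transcript that overlaps ribosomal RNA, had a median share of 2.64% per cell in wt and 0.533% in db/db. In B cells kidney tubule markers summed to 3.06 CPM (UMIs per 1000000 UMIs of the class) in the wt library and to 42.5 in the other, and their part in the results was not tested.

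Cells were clustered without Txnip and without the gene lists used below, and classes were named from marker genes, so each name stands for cells like that type. The B cell class had 2718 wt and 2306 db/db cells, with all 14 B cell markers present in both. T cells numbered 713 and 530, natural killer (NK) cells 104 and 55, monocytes 125 and 369, and neutrophils 164 and 356. Erythroid cells numbered 1545 and 1225 and platelets 149 and 413. Most wt B cells lay in clusters 0 and 3, whereas most db/db B cells lay in cluster 1, so values are also given per cluster.

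Txnip was detected in every class, and the granulocytes carried the most. In wt blood the level was 1048 CPM in neutrophils (95% Poisson interval 946 to 1158), 403 in T cells (380 to 427), 365 in monocytes (318 to 418), 355 in B cells (341 to 370) and 278 in NK cells (226 to 338). Platelets were at 88.7 CPM (51.7 to 142) and erythroid cells at 48.2 CPM (43.0 to 53.8). The neutrophil interval lay above those of the other 6 classes. Neighbours in this order had overlapping intervals from T cells to monocytes, from monocytes to B cells and from platelets to erythroid cells.

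In db/db blood the order was closer together at the top. Neutrophils were at 851 CPM (785 to 922), B cells at 767 (744 to 791), T cells at 756 (717 to 796), NK cells at 632 (520 to 762) and monocytes at 543 (509 to 577). Erythroid cells were at 121 CPM (113 to 129) and platelets at 80.4 CPM (58.8 to 107). The intervals of each neighbouring pair overlapped from neutrophils through to monocytes, so neutrophils no longer stood clear of B cells. Basophils, with only 6 wt and 9 db/db cells, gave 3066 CPM (2020 to 4460) and 1309 CPM (877 to 1880), from 27 and 29 Txnip UMIs.

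**Figure D1:**
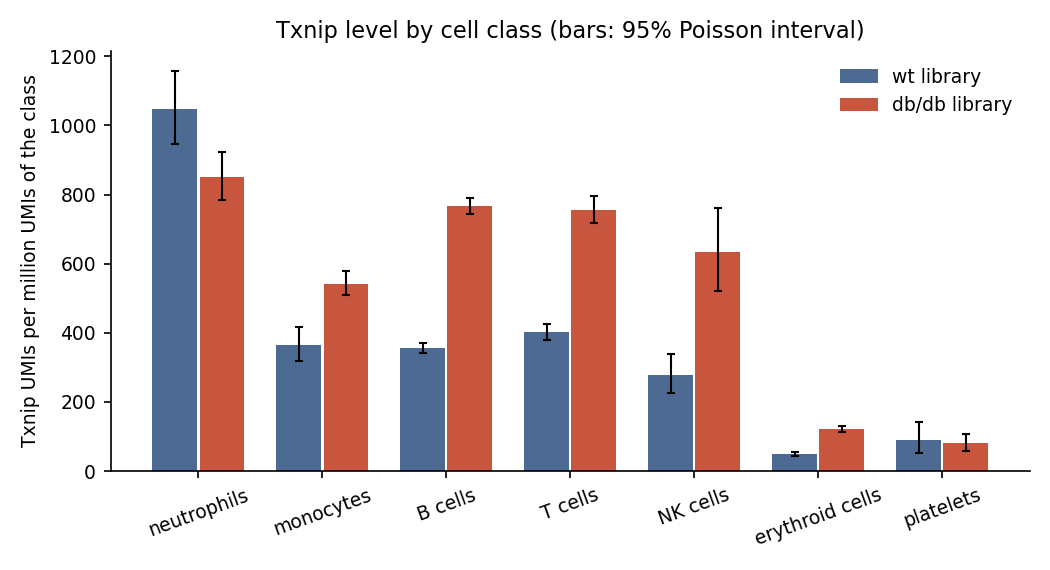
Txnip level (UMIs per 1000000 UMIs of the class, vertical axis from 0) in 7 cell classes of the wt and db/db libraries, 1 library each. Bars are class sums with 95% Poisson intervals; neutrophils are highest in wt at 1048, and B cells go from 355 in wt to 767 in db/db.

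B cells carried 2.16 times as much Txnip in db/db as in wt (exact conditional binomial interval 2.05 to 2.27, 2323 and 4265 UMIs). On the scale of log2 of CPM plus 10 the difference was 1.09. Of 8045 genes with at least 50 UMIs in the B cells of the genotype with more, 18 had a larger ratio than Txnip, and 0.895% were past 1.5-fold higher in db/db (1.39% lower). Since Txnip was picked for this contrast, nothing is read from that rank. The median log2 ratio of those genes was -0.02.

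The 4 B cell clusters all had more Txnip in db/db, by different amounts. Cluster 0, led by Cd79a and class II genes, was at 387 CPM in wt and 801 in db/db, giving a ratio of 2.07 (1.92 to 2.23). Cluster 1, which held most db/db B cells, was at 354 and 751 CPM, giving a ratio of 2.12 (1.90 to 2.38). Cluster 8, led by the transitional B cell genes Vpreb3, Spib and Akap12, was at 313 and 806 CPM, giving a ratio of 2.58 (2.13 to 3.11). Cluster 3, led by Fchsd2, Gm42418 and the nuclear RNA Malat1, was at 334 and 532 CPM, giving a ratio of 1.59 (1.30 to 1.94). Its haemoglobin share was 17.6% in wt and 29.4% in db/db, and per 1000000 UMIs other than haemoglobin its ratio was 1.86 (1.51 to 2.27). Gating on single genes gave like values. B cells with a UMI of Fcer2a, the low-affinity IgE receptor of follicular B cells, had a ratio of 2.16 (2.01 to 2.32), and those with a Vpreb3 UMI had 2.18 (2.01 to 2.36).

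The sum of platelet markers in B cells was 117 CPM in wt against 265 in db/db. The platelet class had Txnip at 88.7 CPM in wt and 80.4 in db/db. The part of platelet RNA in the B cell Txnip difference was not tested. A mixed cluster left unnamed because platelet genes led it while B cell markers were abundant (73 wt and 413 db/db cells) had 362 CPM of Txnip in wt and 615 in db/db.

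T cells had 1.88 times as much Txnip in db/db (1.74 to 2.03, 1153 and 1431 UMIs), a log2 difference of 0.89. The sum of platelet markers in T cells was 131 CPM in wt against 555 in db/db, haemoglobin was 15.1% and 20.1% of UMIs, and the part of either in the Txnip difference was not tested. Among 4933 genes compared, 23 had a larger ratio, and 1.14% were past 1.5-fold higher and 1.66% lower. Cluster 6, led by Lef1 and Tcf7, which mark naive cells, was at 410 CPM in wt and 709 in db/db, giving a ratio of 1.73 (1.55 to 1.93). Its haemoglobin share was 18.3% and 32.55%, and without haemoglobin in the total the ratio was 2.10 (1.87 to 2.34). Cluster 10, led by Cd8b1, Ccl5 and Ly6c2, was at 394 and 799 CPM, giving a ratio of 2.03 (1.81 to 2.27). Its ratio without haemoglobin was 1.97 (1.76 to 2.21), and the intervals of both T cell clusters overlapped on either scale.

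The ratio was above 1 in each T cell gate. Cells with a Cd8a or Cd8b1 UMI were at 376 CPM in wt and 781 in db/db, giving a ratio of 2.08 (1.85 to 2.34). Cells with a Cd4 UMI and none of Cd8 were at 421 and 825 CPM, a ratio of 1.96 (1.64 to 2.33). The 263 wt and 220 db/db T cells with neither had the lowest ratio, 1.61 (1.40 to 1.86), or 1.87 (1.63 to 2.15) without haemoglobin, which was 20.4% and 31.4% of their UMIs. Within the CD8-gated cells, those with a UMI of Ccl5, a chemokine of memory and effector cells, had a ratio of 2.06 (1.62 to 2.65), and those without had 2.01 (1.74 to 2.32). The share of CD8-gated cells with a Ccl5 UMI differed between libraries (43 of 261 cells in wt and 91 of 222 in db/db), and the Txnip ratio was nearly the same on either side of that split.

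NK cells had 100 Txnip UMIs in wt and 110 in db/db. The level went from 278 to 632 CPM, a ratio of 2.27 (1.72 to 3.01), in a class where 10.4% of 722 genes compared were past 1.5-fold higher and 9.97% lower. Monocytes were at 365 CPM in wt and 543 in db/db, giving a ratio of 1.49 (1.28 to 1.73), an interval below that of B cells that overlapped the one of NK cells. In monocytes 6.12% of 3121 genes were past 1.5-fold higher, 3.17% were lower and 217 had a larger ratio than Txnip. Cluster 13, classical monocytes led by Fn1, Chil3 and Ccr2, was at 398 and 534 CPM, giving a ratio of 1.34 (1.11 to 1.63). Cluster 14, nonclassical monocytes led by Ear2 and Ace, was at 322 and 560 CPM, giving a ratio of 1.74 (1.36 to 2.25). These intervals overlapped.

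Neutrophils did not share the higher level. They had 388 Txnip UMIs in wt and 600 in db/db, and the CPM ratio was 0.812 (0.714 to 0.925). Among 1238 genes compared, 5.25% were past 1.5-fold higher and 11.8% lower in db/db, 870 had a larger ratio than Txnip, and the median log2 ratio was -0.07. Haemoglobin was 17.0% of neutrophil UMIs in wt and 26.9% in db/db. per 1000000 UMIs other than haemoglobin Txnip stood at 1262 in wt against 1165, giving a ratio of 0.923 (0.811 to 1.05). With TMM scaling the ratio was 1.01 (0.888 to 1.15). The upper ends of these 3 intervals are all below the lower ends for B, T and NK cells. Whether the difference between neutrophils and lymphocytes would recur in other mice was not tested.

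**Figure D2:**
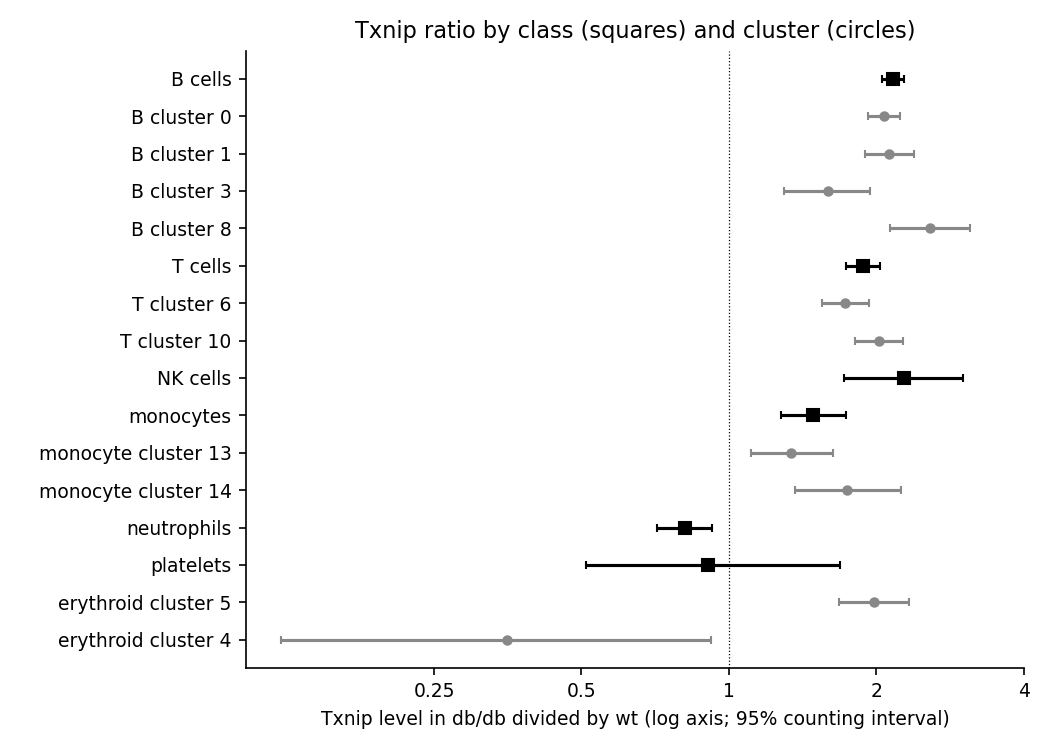
Txnip level in db/db divided by wt (horizontal log axis) with 95% counting intervals, for cell classes (squares) and clusters (circles). B, T and NK cells lie near 2 (2.16, 1.88 and 2.27), monocytes at 1.49, and neutrophils below 1 at 0.812.

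Erythroid cells had a CPM ratio of 2.50 (2.20 to 2.86), which rested largely on 1 of their 3 clusters. Cluster 5 held 774 of the 817 db/db erythroid Txnip UMIs. Its B cell markers summed to 16228 per 1000000 non-haemoglobin UMIs in wt and 15558 in db/db, against 17920 and 16704 in B cell cluster 0. Its Txnip level per 1000000 non-haemoglobin UMIs was 344 and 716, close to the 395 and 830 of B cell cluster 0. Erythroid cluster 4, led by Car2 and Slc4a1, carried little: 15 Txnip UMIs in 397 wt cells and 7 in 516 db/db cells, or 5.67 and 2.00 CPM. Cluster 2, led by haemoglobin genes, was at 45.2 CPM in 890 wt cells against 59.8 in 168 db/db cells, a ratio of 1.32 (0.885 to 1.94), or 1.81 (1.21 to 2.66) without haemoglobin in the total. Clusters 2 and 4 together gave 0.413 (0.286 to 0.586), a value that mixes clusters of different level held in different numbers by the libraries, and not a lower level in both. The part of B cell RNA in cluster 5 was not tested.

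Cluster 4 was set beside B cells as a class low in Txnip. Its cells had medians of 6399 and 6185 UMIs, of which haemoglobin took 89.6% and 90.7%, and 3.78% of them in wt and 1.36% in db/db had a Txnip UMI. In B cells, with medians of 2248 and 2188 UMIs, the shares were 50.5% (Clopper-Pearson 48.6 to 52.4) and 76.6% (74.8 to 78.3). Platelets had 17 Txnip UMIs in wt and 46 in db/db, and their ratio of 0.906 (0.510 to 1.69) leaves a difference in either direction undetectable at this depth.

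With every cell thinned to 1000 UMIs (279 wt and 72 db/db B cells were shallower and left out), 30.4% of wt (28.6 to 32.3) and 52.3% of db/db B cells (50.2 to 54.4) had a Txnip UMI. Cells with 2 or more made up 6.77% in wt and 18.8% in db/db. UMIs per positive cell were 1.27 and 1.501. A Poisson distribution with the same mean would give 32.0% and 54.4% positive cells, and the ratio of variance to mean was 1.14 and 1.13. Both ratios were slightly above that of a Poisson distribution. Whether cells of high and low level were mixed was not tested.

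T cells went from 34.3% positive in wt (30.8 to 37.99) to 49.7% in db/db (45.2 to 54.2) after thinning. Unthinned, the shares were 69.4% and 77.9%, at medians of 3649 and 3160 UMIs. The variance over the mean was 1.10 in wt and 1.31 in db/db, and the Poisson share in db/db would be 55.8%, above the interval of the counted share. T cells of db/db with 4 or more Txnip UMIs in 1000 made up 2.43%, and there were 0 among 699 wt T cells, which allows a share of up to 3 cells in 699.

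NK cells had thinned shares of 33.0% (23.9 to 43.1) and 42.6% (29.2 to 56.8), with overlapping intervals. Monocytes had 32.2% (24.0 to 41.3) and 42.1% (36.9 to 47.4), also overlapping.

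In neutrophils the share of positive cells was nearly equal, 58.5% (50.1 to 66.6) for wt against 60.3% (54.7 to 65.7) for db/db, while UMIs per positive cell were 2.17 and 1.76. Cells with 4 or more Txnip UMIs in 1000 were 6.80% of wt and 3.44% of db/db neutrophils. The wt cells were the more uneven, with a variance over the mean of 1.76 against 1.28 in db/db. A Poisson distribution would have left 72.0% of wt neutrophils positive.

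**Figure D3:**
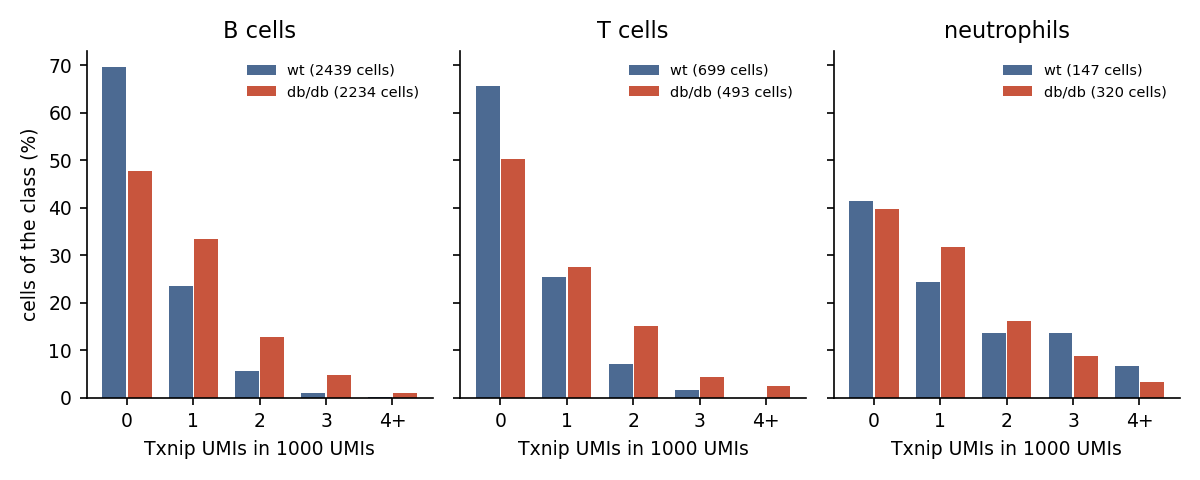
Share of cells (percent, vertical axis) with 0, 1, 2, 3 or at least 4 Txnip UMIs after thinning each cell to 1000 UMIs, in B cells, T cells and neutrophils of each library. B cells without Txnip go from 69.6% in wt to 47.7% in db/db, whereas neutrophils without Txnip are 41.5% and 39.7%.

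Among the other alpha-arrestins in B cells 0 of 3 measured members were past 1.5-fold higher in db/db and 1 was past 1.5-fold lower. Measured means at least 20 UMIs over both libraries, and by that rule 0.734% of 10223 B cell genes were higher and 1.1% lower. Arrdc3, an arrestin that acts on adrenergic receptor traffic, was at 41.6 CPM in wt and 16.2 in db/db B cells, a ratio of 0.389 (0.303 to 0.496). Arrdc4, a close relative of Txnip and likewise a MondoA target, had too few B cell UMIs to be measured (1 in wt against 15 in db/db, a ratio of 17.6 with an interval of 2.72 to 743). In T cells Arrdc4 was at 1.75 CPM (5 UMIs) and 15.9 CPM (30 UMIs), a ratio of 9.08 (3.49 to 29.97). It was the only 1 of 4 measured arrestins past 1.5-fold higher there, where 1.35% of 8864 genes were higher and 1.35% lower. In monocytes Arrdc4 was at 25.8 and 36.6 CPM (ratio 1.42, 0.802 to 2.67) and in neutrophils at 27.0 and 42.6 CPM (1.58, 0.750 to 3.61), both within counting error of 1.

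The glucose-sensing factors were present at low levels. Mlxip was at 50.1 CPM in wt and 63.7 in db/db B cells, and at 29.7 and 37.0 CPM in T cells. Mlx, its obligate partner, was at 25.1 and 27.7 CPM in B cells and 25.5 and 24.8 CPM in T cells. Mlxipl had 0 UMIs in B, T and NK cells of both libraries, which allows up to 3 in each class sum. None of the 2 measured factors was past 1.5-fold in B or T cells. Over all measured genes, 0.734% were higher and 1.1% lower in B cells, and 1.35% and 1.35% in T cells. In monocytes Mlxip was at 18.9 CPM in wt and 40.5 in db/db (11 and 74 UMIs, ratio 2.14, 1.13 to 4.47), in a class where 4.63% of 7782 genes were higher and 6.3% lower.

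Of the 6 other carbohydrate-response targets measured in B cells none was past 1.5-fold in either direction, and of 7 in T cells only Arrdc4 was. Over all measured genes, 0.734% were higher and 1.1% lower in B cells, and 1.35% and 1.35% in T cells. Klf10, a glucose- and TGF-beta-responsive repressor, was at 3.06 CPM in wt and 7.38 in db/db B cells (20 and 41 UMIs, ratio 2.41, 1.38 to 4.35), which stayed under 1.5-fold on the scale with 10 CPM added. In monocytes Klf10 was at 48.2 and 82.0 CPM, giving a ratio of 1.70 (1.13 to 2.65), the only higher member of 7, and Fasn, fatty acid synthase, was the only lower one at 17.2 and 6.02 CPM (0.350, 0.135 to 0.918, 10 and 11 UMIs). Tkt, transketolase of the pentose phosphate pathway, had B cell levels of 74.9 and 83.6 CPM. Among 7782 measured monocyte genes, 4.63% were higher and 6.3% lower.

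Thioredoxins, their reductases, peroxiredoxins and glutaredoxins were compared on the scale with 10 CPM added. Among them 0 of 16 measured genes in B cells and 0 of 14 in T cells were past 1.5-fold. Over all measured genes, 0.734% were higher and 1.1% lower in B cells, and 1.35% and 1.35% in T cells. Counts of 0 are near those shares. The list median log2 ratio was 0.165 in B cells, against -0.012 over all genes, and 0.167 in T cells, against -0.048. Txn1, the cytosolic thioredoxin that Txnip binds, was at 75.0 and 85.4 CPM in B cells (ratio 1.14, 1.00 to 1.29) and at 84.8 and 98.3 CPM in T cells (1.16, 0.952 to 1.41). Txnrd1, which recycles it, was at 20.5 and 31.3 CPM in B cells. In NK cells 3 of 9 were past 1.5-fold higher and 0 lower, in a class where 13.5% of 3765 genes were higher and 10.5% lower. These were Glrx3, an iron-sulfur glutaredoxin, with a ratio of 2.97 (1.504 to 6.02, 16 and 23 UMIs), Txndc17, a thioredoxin-like protein, with 1.76 (1.12 to 2.74), and Txnrd1 with 1.61 (0.865 to 2.95). In monocytes Txn1 went from 193 CPM in wt to 330 in db/db (1.71, 1.40 to 2.11), and Prdx5, a peroxiredoxin of mitochondria and peroxisomes, from 530 to 1029 (1.94, 1.72 to 2.20). These were the 2 of 14 monocyte members past 1.5-fold higher, in a class where 4.63% of 7782 genes were higher and 6.3% lower.

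Glucose uptake and glycolysis genes were compared in B and T cells with 10 CPM added. Over all measured genes, 0.734% were higher and 1.1% lower in B cells, and 1.35% and 1.35% in T cells. No measured transporter was past 1.5-fold in B cells (0 of 5) or T cells (0 of 3). Without the 10 CPM, Slc2a6 was past 1.5-fold lower in B cells (0.621, 0.337 to 1.11). Eno1 was past it higher in B cells (1.503, 1.33 to 1.70), as was Tpi1 in T cells (1.72, 1.08 to 2.75), both of glycolysis. Slc2a1, the basal transporter that Txnip draws inside, was at 21.5 and 19.97 CPM in B cells and 14.3 and 11.1 CPM in T cells. Of 13 measured glycolysis genes in each of B and T cells, 0 were past 1.5-fold with the 10 CPM added. The median log2 ratio of the list was 0.20 in B cells, against -0.01 over all B cell genes, and 0.01 in T cells, against -0.05. Ldha, lactate dehydrogenase A, was at 62.7 and 92.1 CPM in B cells and at 166 and 164 CPM in T cells. The NLRP3 inflammasome list, included since Txnip protein is known to bind Nlrp3, had 0 of 6 genes past 1.5-fold in B cells and 0 of 5 in T cells. Over all 7782 measured monocyte genes, 4.63% were higher and 6.3% lower. In monocytes 1 of 7 was higher and 2 were lower: Nlrp3 was at 22.4 CPM in wt and 39.4 in db/db (13 and 72 UMIs, ratio 1.76, 0.967 to 3.46), Il1b at 153 and 74.4 CPM (0.485, 0.369 to 0.642), and Il18 at 29.3 and 8.75 CPM (0.299, 0.141 to 0.629).

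The glucocorticoid list held the most genes that were higher beside Txnip, 5 of 15 in B cells with 0 lower. Over all 10223 measured B cell genes, 0.734% were higher and 1.1% lower. This list, like the others, was chosen with earlier results of these data known. Fkbp5, a chaperone of the glucocorticoid receptor, was at 9.32 CPM in wt and 46.4 in db/db B cells (ratio 4.98, 3.75 to 6.69). Ddit4, an mTORC1 inhibitor, was at 5.66 and 38.3 CPM (6.78, 4.76 to 9.89). Zbtb16, the transcription factor PLZF, was at 0.153 CPM (1 UMI) and 15.8 CPM (88 UMIs), a ratio of 104 with an interval of 18.1 to 4137. Sesn1, a stress-induced mTORC1 regulator that is also in the FOXO list, was at 63.6 and 128 CPM (2.02, 1.79 to 2.28), and Tsc22d3, which encodes GILZ, at 423 and 643 CPM (1.52, 1.45 to 1.60). The median log2 ratio of the 15 was 0.16. Per1, Klf9 and Sgk1, also glucocorticoid-induced, had B cell log2 ratios of -0.14, -0.03 and 0.05.

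In T cells 3 of 13 were higher: Ddit4 (8.03 to 30.1 CPM, 3.75, 2.27 to 6.38), Fkbp5 (18.9 to 33.8 CPM, 1.79, 1.23 to 2.63) and Il7r, the interleukin-7 receptor chain (569 to 1022 CPM, 1.79, 1.68 to 1.92). Tsc22d3 was just under the line at a log2 ratio of 0.58. The median over the 13 was -0.001, against -0.05 for all T cell genes. Of 8864 measured T cell genes, 1.35% were higher and 1.35% lower.

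Neutrophils had Fkbp5 at 10.8 CPM in wt and 71.0 in db/db (4 and 50 UMIs, ratio 6.57, 2.41 to 25.04). Their Tsc22d3 was at 529 and 871 CPM (1.65, 1.40 to 1.94). The neutrophil Txnip ratio was 0.812, and a link between these genes and Txnip was not tested. With Zbtb16 (10.8 and 31.2 CPM), Fkbp5 and Tsc22d3 made 3 of 11 measured glucocorticoid genes past 1.5-fold higher, and 1, Il7r, was lower. In this class 4.48% of 4087 genes were higher and 17.3% lower. Monocytes had 4 of 15 higher and 1 lower, in a class where 4.63% of 7782 genes were higher and 6.3% lower. Fkbp5 was at 6.89 and 65.6 CPM there (4 and 120 UMIs, 9.53, 3.63 to 35.5), Klf9 at 8.61 and 37.7 CPM, Ddit4 at 36.2 and 97.3 CPM and Zbtb16 at 12.1 and 26.3 CPM, and Sesn1 was lower at 32.7 and 15.3 CPM.

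Of 18 genes linked to FOXO factors, quiescence and trafficking, 2 were higher and 1 lower in B cells. Pik3ip1, an inhibitor of PI3 kinase, was at 62.7 and 137 CPM (2.19, 1.94 to 2.48), next to Sesn1 above. Bcl6, the germinal centre repressor, was at 41.0 and 16.9 CPM (0.413, 0.323 to 0.524). Klf2, a quiescence factor that drives S1pr1, was at 983 and 1290 CPM in B cells (1.31, 1.27 to 1.36). In T cells 1 of 18 was higher, Il7r, and 1 lower, Bcl6 (6.98 and 1.06 CPM, 20 and 2 UMIs). Immediate early genes, which mark recent stimulation or handling, had 2 of 9 lower in B cells and 0 higher. They were Egr1 (21.9 to 3.42 CPM) and Fosb (138 to 68.9 CPM). In T cells 2 of 8 were lower, Fos (64.2 to 37.5 CPM) and Jun (29.7 to 13.7 CPM). Among 7 genes of Txnip protein turnover and kinase control, 0 passed 1.5-fold in B cells and 1 was lower in T cells, the kinase gene Akt2, at a log2 ratio of -0.67. Itch, the ubiquitin ligase that marks Txnip for degradation, was at 122 and 116 CPM in B cells and 79.9 and 69.7 CPM in T cells. Beside these list counts, 0.734% of 10223 measured B cell genes were higher and 1.1% lower. Among 8864 measured T cell genes, 1.35% were higher and 1.35% lower.

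**Figure D4:**
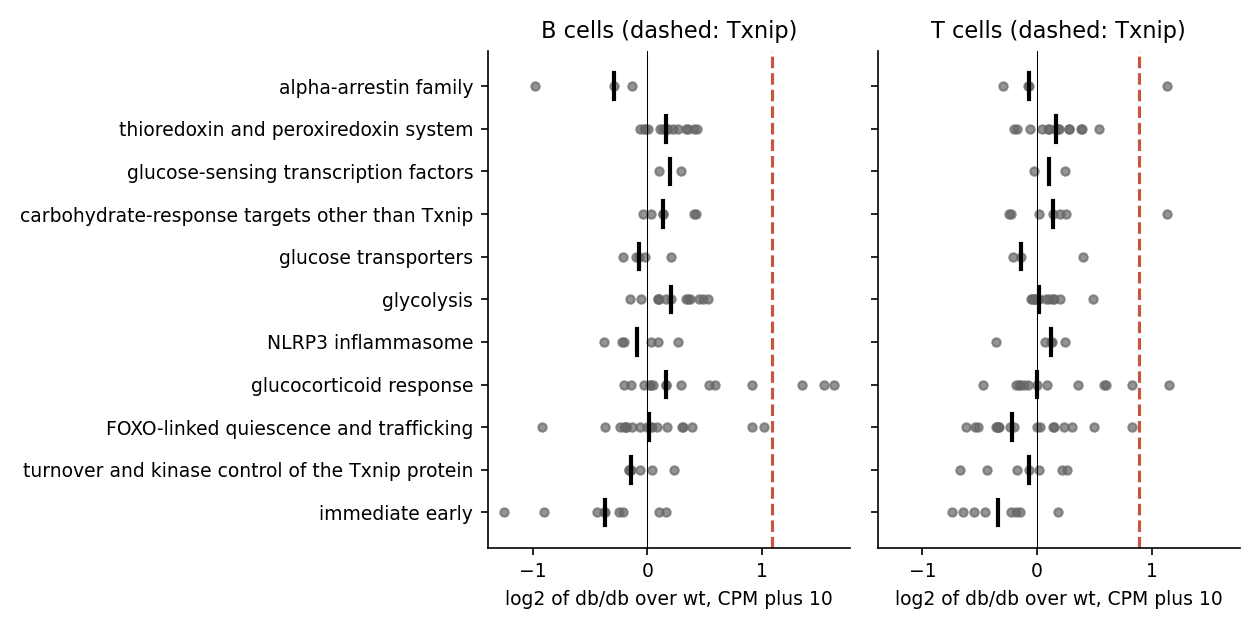
Log2 ratio of db/db over wt (CPM plus 10, horizontal axis) for each measured member of the 11 gene lists in B cells (left) and T cells (right); points are genes, thick ticks list medians and the dashed line Txnip. Txnip lies at 1.09 in B cells and 0.89 in T cells, above the median of every list in both classes.

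Across the 7 classes and 2 libraries, 14 points in all, the gene whose log2 level was most like that of Txnip among 8778 genes was Polr3gl, a subunit of RNA polymerase III (Pearson r 0.951, Spearman rho 0.868). The next were Ppp1cc (0.939), Cdkn2aip (0.939), Smim4 (0.935), Klf2 (0.934), Arid4a (0.932), Rsrp1 (0.930) and Acadsb (0.929). The points share libraries and a common gap between leukocytes and red cells or platelets. Over the 10 leukocyte points alone r for Polr3gl was 0.741, so much of the likeness rested on that gap.

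Polr3gl is also a near neighbour, on the minus strand, with 15989 bases between the 2 genes. It was at 15.3 CPM in wt and 24.6 in db/db B cells (100 and 137 UMIs, ratio 1.61, 1.24 to 2.11), at 16.8 and 23.8 CPM in T cells (1.42, 0.923 to 2.18), and at 21.6 and 14.2 CPM in neutrophils (8 and 10 UMIs, 0.657, 0.233 to 1.91). Gm15441, an antisense long noncoding RNA whose span (96555765 to 96566801, minus strand) covers all of Txnip, had 23 UMIs in all kept wt cells and 56 in db/db cells, a ratio of 2.15 (1.30 to 3.66). Whether strand was used in counting is not given in the sources used here, so reads of the overlapping pair may not be fully separable. Within 50000 bases the remaining measured genes had between 0 and 10 UMIs per library.

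Within a class, cells with and without a Txnip UMI (after thinning to 1000 UMIs) were compared gene by gene in each library. In B cells 741 wt cells with Txnip were set against 1698 without, and 1168 against 1066 in db/db. The log2 ratio of positive over negative cells correlated across 5247 genes at 0.004 between the libraries, where genes are not independent replicates. The split rested on means of 0.386 (wt) and 0.785 (db/db) Txnip UMIs per cell, and genes with as few as 40 UMIs were included. A low correlation therefore does not show that co-expression is absent. Ptgr2, a prostaglandin reductase and the highest gene in wt, was at 1.01 in wt and -0.09 in db/db. Mettl3, the RNA methyltransferase and the lowest, was at -0.999 and 0.04. Tkt was higher in Txnip-positive B cells of both libraries, by 0.75 and 0.40, against medians over genes of 0.03 and 0.03 and standard deviations of 0.24 and 0.23. Fkbp5 and Ddit4 had too few UMIs for this comparison, while Tsc22d3 was at 0.14 and 0.21 and Sesn1 at 0.26 and 0.19. Within B cell cluster 0 alone, Tsc22d3 was at -0.002 and 0.001 and Sesn1 at 0.08 and 0.14. Of the same glucocorticoid list, Dusp1 was at -0.44 and 0.18 and Nfkbia at -0.17 and 0.18 over all B cells. Per1, Cxcr4 and Zfp36 were higher in Txnip-positive cells of both libraries.

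In T cells the correlation between libraries, with the same limit, was 0.064 across 1235 genes. Ahnak, a large scaffold protein and the highest in wt, was at 1.39 in wt and 0.07 in db/db (240 positive and 459 negative wt cells, 245 and 248 in db/db). Some listed genes were higher in Txnip-positive T cells of both libraries. Nfkbia, the NF-kB inhibitor, was at 0.60 and 0.90, Cdkn1b, the cell cycle inhibitor p27, at 0.42 and 0.59, Il7r at 0.39 and 0.50, Ccr7, the lymph node homing receptor, at 0.33 and 0.48, and Klf2 at 0.22 and 0.28. The median over all genes was 0.11 in wt and 0.19 in db/db, and the standard deviation 0.32 and 0.35, so of these only Nfkbia was more than 1 standard deviation above the median in both. Haemoglobin had a lower median share in Txnip-positive than in negative T cells, 0.980% against 1.11% in wt and 1.52% against 2.19% in db/db, and its part was not tested. In neutrophils the correlation was -0.025 across 413 genes, and it is limited in the same way.

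**Figure D5:**
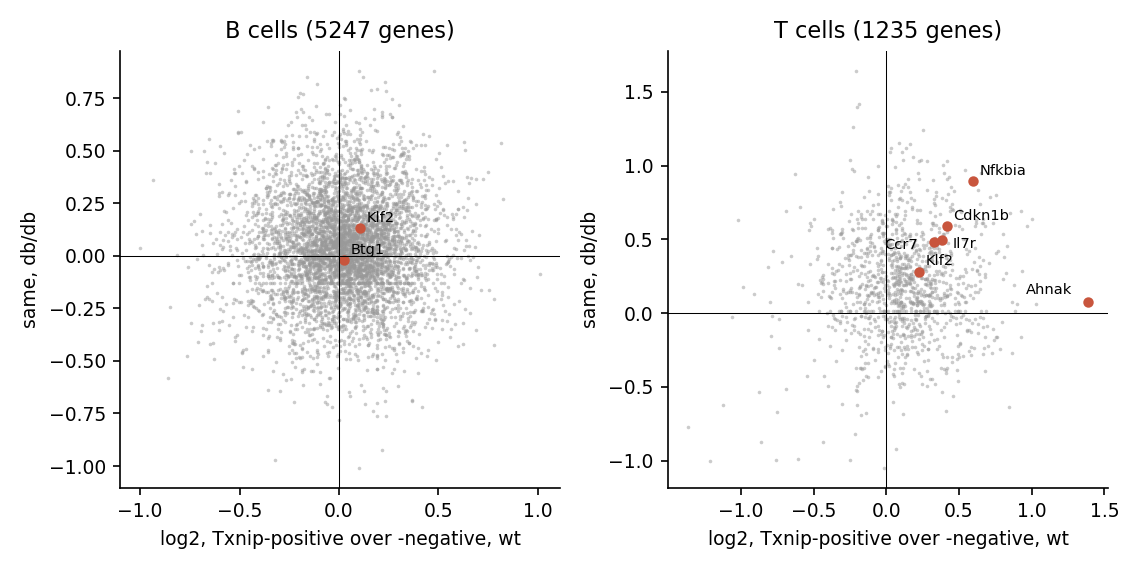
Log2 ratio of Txnip-positive over Txnip-negative cells in wt (horizontal axis) and db/db (vertical axis), 1 point per gene, for B cells (5247 genes) and T cells (1235 genes) thinned to 1000 UMIs. The clouds show no common slope (correlations 0.004 and 0.064), but few Txnip UMIs per cell and few UMIs per gene could hide one. Named genes are in colour, with Nfkbia at 0.60 and 0.90 in T cells.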

How the data were processed

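The authors deposited raw counts, a whole number of UMIs for each gene in each barcode, made with Cell Ranger 3.0.2 on mm10, per the submitters' processing notes. The annotation, cell calling and strand setting are not given in the sources used here. No barcode had fewer than 500 UMIs. They were analysed with scanpy 1.11.5 and scipy 1.17.1, on numpy 2.4.6 and pandas 2.3.3 under Python 3.11.15. Kept barcodes were scaled to 10000, log-transformed and clustered together. In all 2000 variable genes were used, ranked within each library and then combined, without Txnip and list genes. Clustering took 30 components, 15 neighbours and Leiden resolution 1 (leidenalg 0.10.2). A class needed 3 of its markers among 50 leading genes. Scrublet called 6 cells in each library (0.105% and 0.0982%), under the 0.5% that would show it had worked, so no doublets were removed.

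Class sums became CPM with exact Poisson 95% intervals, ratios with exact conditional binomial intervals, and shares with Clopper-Pearson intervals. A count of 0 was taken to allow at most 3. Log2 ratios used CPM plus 10, and a gene counted as higher or lower past 1.5-fold on that scale. Ratio, interval and thinning steps were tested on simulated data. No test was possible, since each group has 1 library. Txnip, the gene lists, the markers and the motifs were chosen with earlier results of these data known. Named genes are Txnip, members of the lists, the 8 genes most like it across classes, in B and T cells the 8 highest and 4 lowest between Txnip-positive and Txnip-negative wt cells with at least 40 UMIs (of these the extremes are named), and markers. Genes around Txnip were added after the first values had been seen. Gene positions came from GENCODE M21 and promoters from RefSeq, both on GRCm38.
Alternatives tried were other gene and mitochondrial limits, another clustering resolution, classes by marker UMIs, TMM scaling, another pseudocount, equal weights per cell, other thinning depths, other UMI minimums, and single clusters.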

Additional observations from a re-analysis of the deposited data

Results flagged for a closer look

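The Txnip ratio of db/db over wt was below 1 in neutrophils, at 0.812 (0.714 to 0.925), and above 1 in B cells, at 2.16 (2.05 to 2.27). The difference between the classes was not tested, since each genotype has 1 library. Without haemoglobin in the total the neutrophil ratio was 0.923.

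Barcodes with at least 200 genes that failed the mitochondrial limit were left out of every comparison and still carried Txnip. The level was 232 CPM in 1849 wt barcodes and 258 CPM in 374 db/db barcodes, a ratio of 1.11 (0.949 to 1.30). The share of barcodes with a Txnip UMI was 17.8% in wt and 37.4% in db/db, at median depths of 781 and 937.5 UMIs. These barcodes were not split into cell classes.

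A cluster led by the kidney tubule genes Gpx3 and Miox held 102 db/db and 3 wt barcodes. Its db/db barcodes had Txnip at 315 CPM (253 to 386, 91 UMIs). In those barcodes B cell markers summed to 11941 per 1000000 non-haemoglobin UMIs, above the 9704 of kidney tubule markers, and haemoglobin was 44.4% of UMIs. The wt barcodes had 1 Txnip UMI.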

How the results depend on the processing

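No paired analysis was possible because each genotype has 1 library. For the same reason none could be left out. Class ratios stayed above 1 under all alternatives in B cells (21, from 1.59 to 2.58), T cells (18, from 1.73 to 2.03), NK cells (16, from 1.62 to 2.30) and monocytes (18, from 1.34 to 1.74). Alternatives by cluster or haemoglobin share were chosen after seeing the data.

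Values that left the counting interval of the reported ratio were, in B cells, 1.94 with at least 100 genes, 1.96 with a mitochondrial limit of 5%, 2.02 with a pseudocount of 50 CPM, 1.59 in cluster 3 alone and 2.58 in cluster 8 alone. In T cells cluster 6 alone gave 1.73, in NK cells leaving out cells of several lineages gave 1.62, and in monocytes cluster 14 alone gave 1.74. TMM scaling turned the neutrophil ratio to 1.01. In erythroid cells it reversed, to 0.606 with at least 100 genes, 0.371 at 5% mitochondrial and 0.413 without cluster 5, although cluster 2 alone, which is part of the last value, gave 1.32. The same ratio was 2.06 with at least 500 genes, 2.04 at 20% mitochondrial, 1.64 at Leiden resolution 0.5, 1.89 by marker UMIs, 2.09 with equal cell weights, 1.74 with 50 CPM added and 1.08 under 10% haemoglobin. The platelet ratio was 2.23 with at least 500 genes, 1.75 by marker UMIs, 2.11 without cells of several lineages and 1.74 with TMM. The ratio of B cell shares, 1.72, was 1.52 unthinned, 1.55 at 2000 UMIs and 1.95 at 500 non-haemoglobin UMIs, and that of T cell shares, 1.45, was 1.12 unthinned. Genes past 1.5-fold in T cells, 138 in all, were 250 with no minimum and 71 with at least 100 UMIs. The cause was not tested. Platelets, with 17 and 46 Txnip UMIs, have an interval that spans 1.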
